A study of Homo sapiens with 6 samples.

Results

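TBX3, TBX2, DLX2, DLX1 and SOX4 encode transcription factors that act in embryonic patterning and in the neural crest, the tissue that melanocytes come from. TBX3 and TBX2 are close paralogs of the T-box family, DNA-binding repressors known for holding back cell cycle inhibitor genes and so for letting cells escape senescence, in melanoma among other tumours. DLX1 and DLX2 are homeodomain proteins encoded side by side in the genome and known from the forebrain and the pharyngeal arches. SOX4 belongs to the SoxC group of HMG-box factors, with SOX11 and SOX12, and is a known TGF-beta target in other cell types. The 5 genes were taken by symbol from the 58051 rows of the gene count table, and all 5 were among the 16690 genes tested. TBX3, DLX1, DLX2 and SOX4 were chosen by their measured log2 fold change, being higher with TGFB1 than with Vehicle, and TBX2 as the paralog of TBX3. Their difference between the groups is therefore described here with its error, with no p-value and no call.

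The cells were A375, an established human melanoma line, in bulk RNA-seq. The 3 TGFB1 libraries came from cultures given human recombinant TGFB1, the ligand of the TGF-beta receptors, at 10 ng/mL for 2 h, and the 3 Vehicle libraries from cultures given 4 mM HCl with 1 mg/mL BSA over the same time. All cells had been serum starved for 2 h beforehand. The submitters call the libraries technical triplicates, so errors and p-values cover only the spread between these libraries. In bulk RNA, a change in the number of cells that express a gene and a change in RNA per cell cannot be told apart.

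Library totals ran from 24713894 to 34895075 counts. SMAD7, SKIL, KLF10, JUNB and PMEPA1, early targets of the pathway, rose, 5 of 5 (edgeR, adjusted p below 0.05), against 2.43% of all tested genes. These 5 were listed with earlier results of these data known, so their rise is no independent check of the treatment. Of 10 melanocyte lineage markers, SOX10 had 0 counts in all 6 libraries, and TYR was below 0.1 CPM on average in both groups. MITF stood at 53.5 ± 2.01 CPM with TGFB1 and 62.7 ± 3.02 CPM with Vehicle (SD, n = 3 each). CPM are counts scaled to the TMM-adjusted library total over the 16690 tested genes. The summed level of the melanocyte markers was 184.5 to 193.8 CPM with TGFB1 and 203.2 to 221.0 CPM with Vehicle. Most of it came from MITF, S100B and EDNRB. PMEL averaged 0.534 CPM with TGFB1 and 0.913 CPM with Vehicle, and MLANA and TYRP1 were lower. With TGFB1 and Vehicle in turn, keratinocyte markers summed to 65.9 to 69.5 and 51.2 to 69.3 CPM, mostly KRT10. Endothelial markers summed to 14.6 to 15.9 and 13.1 to 17.7 CPM, and fibroblast markers to 6.73 to 8.05 and 6.28 to 8.96 CPM. Immune markers summed to 0.0614 to 0.365 CPM with TGFB1 and 0.327 to 0.402 CPM with Vehicle. MITF fell (log2 fold change -0.23, adjusted p = 0.0355, edgeR), a call lost with limma-voom (0.0537), with no low-count filter (0.0854), at a threshold of 0.01, and without TGFB1 replicate 1 (0.208) or 3 (0.205) or Vehicle replicate 1 (0.107) or 2 (0.229); its part in the results below was not tested.

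Of the 5 genes, DLX1, DLX2 and SOX4 matched the RefSeq promoter table by symbol, and TBX3 and TBX2 did not. The 3 promoters are shown because they could be searched for motifs of the SMAD and AP-1 factors that TGF-beta signalling acts through. They are RefSeq windows on GRCh38.p14, from 250 bases before to 50 after the start annotated by RefSeq. They are printed 5′ to 3′ on the gene's strand. Capitals mark CAGAC or its reverse complement GTCTG (the core SMAD binding element), TGANTCA (the AP-1 site) and CACGTG (the E-box).
DLX1: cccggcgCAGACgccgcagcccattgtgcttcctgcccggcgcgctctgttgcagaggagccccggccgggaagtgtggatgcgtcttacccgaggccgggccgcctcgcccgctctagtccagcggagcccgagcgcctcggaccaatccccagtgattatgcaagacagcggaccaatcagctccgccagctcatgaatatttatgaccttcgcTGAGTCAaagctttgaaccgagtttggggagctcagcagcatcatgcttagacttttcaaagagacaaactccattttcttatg
DLX2: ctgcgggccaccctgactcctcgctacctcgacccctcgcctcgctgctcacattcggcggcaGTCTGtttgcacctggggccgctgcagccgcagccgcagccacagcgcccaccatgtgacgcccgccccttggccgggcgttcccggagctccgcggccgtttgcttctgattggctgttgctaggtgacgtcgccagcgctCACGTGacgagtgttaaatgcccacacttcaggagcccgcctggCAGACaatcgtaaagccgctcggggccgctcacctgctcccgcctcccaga
SOX4: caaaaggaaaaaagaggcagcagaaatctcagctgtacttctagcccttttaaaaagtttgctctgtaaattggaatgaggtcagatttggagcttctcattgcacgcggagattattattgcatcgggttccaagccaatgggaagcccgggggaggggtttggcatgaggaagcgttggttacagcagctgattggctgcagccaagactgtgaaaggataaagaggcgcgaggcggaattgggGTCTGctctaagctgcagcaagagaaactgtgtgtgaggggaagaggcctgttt
The DLX1 window is chr2:172085257-172085556 on the plus strand and that of DLX2 chr2:172102851-172103150 on the minus strand. That of SOX4 is chr6:21593501-21593800 on the plus strand. By the GENCODE coordinates given below, the DLX1 window lies inside the gene (172084740 to 172089677). The SOX4 window likewise lies inside the SOX4 exon (21592768 to 21598619). The DLX2 window covers the GENCODE start of DLX2, at 172102900. Offsets are counted from the RefSeq start, so in DLX1 and SOX4 they describe sequence that GENCODE places within the gene. All 3 windows hold the 5 letters of the SMAD core, at offset -243 from the start in DLX1, -187 and -1 in DLX2, and -4 in SOX4. This short motif is common, and 45.3% of the 35116 RefSeq windows of this length hold it on either strand. The GGCGC variant read by SMAD proteins is also in all 3, against 48.6% of all windows; in DLX1 the match at offset -247 shares its last base with the SMAD core. The palindrome GTCTAGAC is in none of the 3 and in 0.202% of windows. The rarer AP-1 and E-box motifs differ between the neighbouring DLX genes. TGAGTCA lies at offset -34 in DLX1 and in neither other window, while 7.71% of all windows hold an AP-1 site. CACGTG lies at offset -45 in DLX2 alone of the 3, while 7.26% of all windows hold it. GGAATG, the TEAD motif, is in the SOX4 window at offset -178 (14.0% of all windows), CCGCCC, a GC box, in that of DLX2 at offset -125 (45.0%), and TATAAA in none (11.5%). The windows also differ in base composition: GC content was 59.0% in DLX1, 67.7% in DLX2 and 49.3% in SOX4, with a median of 58.7% over all windows. The ratio of observed to expected CpG was 0.887 and 0.900 in DLX1 and DLX2, and 0.485 in SOX4, with a median of 0.579. Matches of letters are a description and no evidence of binding.

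TBX3, whose protein represses cell cycle inhibitor and adhesion genes, was the most abundant of the 5 genes in both groups. It had 273, 257 and 269 CPM in TGFB1 replicates 1 to 3, against 87.3, 81.8 and 86.9 CPM in Vehicle replicates 1 to 3. The groups were far apart and the libraries within each close together. The means were 266 ± 8.58 CPM with TGFB1 and 85.4 ± 3.06 CPM with Vehicle (SD, n = 3 each), which is a log2 difference of 1.64 ± 0.05 (SE), or 3.12-fold. This log2 fold change ranked 56 among the 16690 tested genes. Behind these values stand 8758 to 8965 reads per TGFB1 library and 2135 to 3025 per Vehicle library, so TBX3 is by far the best counted of the 5. TBX3 (ENSG00000135111) lies on chromosome 12 at 114670254 to 114684164, minus strand (GENCODE 29, GRCh38), with 6 blocks of exons and no exon of another strand over its own.

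TBX2, the paralog that shares the T-box and is known as a target of MITF in the melanocyte lineage, differed far less. It had 24.1, 25.4 and 23.1 CPM in the TGFB1 libraries, against 18.0, 18.5 and 20.2 CPM in the Vehicle libraries. The groups did not overlap, but only 2.87 CPM separated the lowest TGFB1 library from the highest Vehicle library. The log2 fold change was 0.35 ± 0.09 (SE), 1.28-fold, rank 1422 of 16690. TBX2 (ENSG00000121068) lies on chromosome 17 at 61399896 to 61409466, plus strand. Of its exonic bases, 28 lie under exons of the opposite strand; the antisense gene TBX2-AS1 had 7 to 19 counts per library. Within a library and per kilobase of exon, TBX3 exceeded TBX2 by 11.5, 10.2 and 11.8 times with TGFB1, against 4.92, 4.49 and 4.36 times with Vehicle. Per kilobase of the longest coding transcript it was 8.02, 7.15 and 8.24 times with TGFB1, against 3.43, 3.13 and 3.04 times with Vehicle. The transcripts of the 2 genes shared no stretch of 25 bases, so reads of at least that length are not expected to match both exactly.

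DLX2 showed the largest log2 fold change of the 5 genes, rank 11 of 16690. It stood at 18.3, 16.5 and 16.0 CPM in the TGFB1 libraries, against 1.595, 2.00 and 3.10 CPM in the Vehicle libraries. These values rest on 600, 572 and 522 reads with TGFB1, against 39, 61 and 108 reads with Vehicle. The means were 16.9 ± 1.18 CPM with TGFB1 and 2.23 ± 0.780 CPM with Vehicle (SD, n = 3 each), and the fitted log2 fold change was 2.89 ± 0.16 (SE), or 7.40-fold. The spread was wide in Vehicle, with a coefficient of variation of 34.9%, against 6.94% with TGFB1. The size of the change moves with that spread: the log2 fold change was 3.22 without Vehicle replicate 3, the highest Vehicle library, and 2.72 without Vehicle replicate 1, the lowest.

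DLX1, the partner of DLX2 in the same gene pair, was the better expressed of the pair with Vehicle. It had 29.4, 22.4 and 26.0 CPM in the TGFB1 libraries, against 12.8, 13.1 and 16.8 CPM in the Vehicle libraries. The groups did not overlap. The means were 25.9 ± 3.46 CPM with TGFB1 and 14.3 ± 2.24 CPM with Vehicle (SD, n = 3 each), and the fitted log2 fold change was 0.86 ± 0.11 (SE), or 1.81-fold. Of the 5 genes it varied most between TGFB1 libraries, with a coefficient of variation of 13.3%. DLX1 (ENSG00000144355) lies on chromosome 2 at 172084740 to 172089677, plus strand, and DLX2 (ENSG00000115844) at 172099439 to 172102900, minus strand, so the genes point at each other across 9761 bases. Per kilobase of exon, the ratio of DLX2 to DLX1 was 0.766, 0.906 and 0.758 in the TGFB1 libraries, against 0.153, 0.189 and 0.227 in the Vehicle libraries. DLX1 stood above DLX2 in every library of both groups, and the ratio was higher in every TGFB1 library than in any Vehicle library. How near the ratio comes to 1 depends on the length used: per kilobase of the longest coding transcript, chosen after seeing the data, it was 0.670, 0.792 and 0.662 in the TGFB1 libraries, against 0.134, 0.165 and 0.198 in the Vehicle libraries. Their transcripts shared no stretch of 25 bases.

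SOX4, which in other cells acts in survival and in mesenchymal change, had 37.5, 37.5 and 41.2 CPM in the TGFB1 libraries, against 14.4, 17.8 and 16.98 CPM in the Vehicle libraries. The groups were well separated. The means were 38.8 ± 2.16 CPM with TGFB1 and 16.4 ± 1.81 CPM with Vehicle (SD, n = 3 each), and the fitted log2 fold change was 1.24 ± 0.09 (SE), or 2.36-fold. SOX4 (ENSG00000124766) is a gene of 1 exon on chromosome 6 at 21592768 to 21598619, plus strand. An opposite-strand gene covers 168 of its bases and had at most 1 count in any library.

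**Figure D1:**
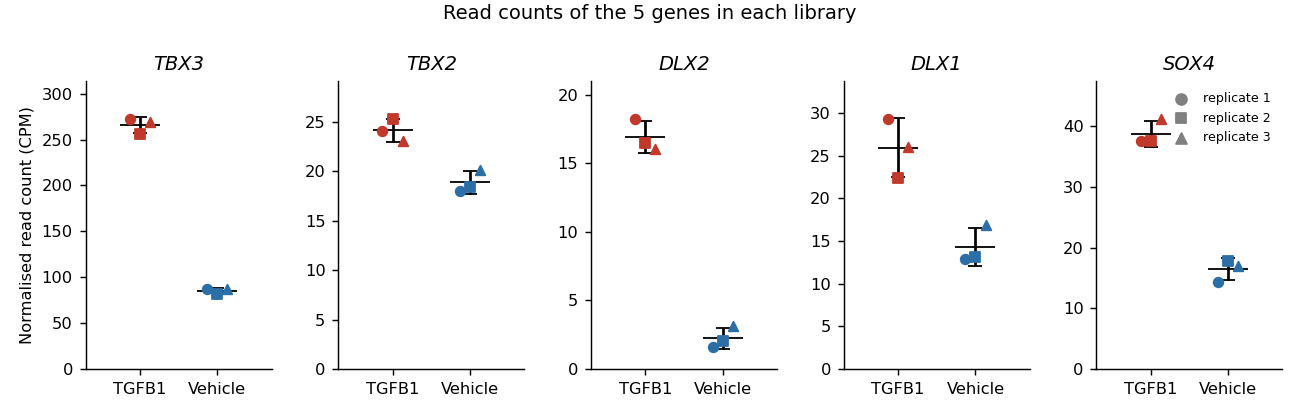
Normalised read counts (CPM, linear axis from 0, one scale per gene) of TBX3, TBX2, DLX2, DLX1 and SOX4, TGFB1 libraries in red at the left and Vehicle libraries in blue at the right; bars are mean ± SD (n = 3) and symbols give the replicate number. TBX3 averaged 266 CPM with TGFB1 and 85.4 CPM with Vehicle, while the TBX2 groups lie close together without overlap.

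In all 5 genes every TGFB1 library lay above every Vehicle library, as in 8.96% of all tested genes. Since 4 of the 5 were picked for their difference, nothing is read from this count. TBX2, DLX2, DLX1 and SOX4 had their lowest Vehicle value in Vehicle replicate 1, and TBX2, DLX2 and DLX1 their highest in Vehicle replicate 3. TBX3 followed neither library. Without Vehicle replicate 3, the count of all genes past the threshold was 923 in place of 553.

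Per kilobase of exon (CPM per kb over all annotated exons), the order of the 5 levels differed between the groups. With TGFB1 it ran from TBX3 (44.7 ± 1.44) through DLX1 (7.10 ± 0.945), SOX4 (6.62 ± 0.370) and DLX2 (5.70 ± 0.396) to TBX2 (4.01 ± 0.191, SD, n = 3 each). The libraries of DLX1 overlapped those of both SOX4 and DLX2, while SOX4 and DLX2 did not overlap. With Vehicle it ran from TBX3 (14.3 ± 0.514) through DLX1 (3.90 ± 0.613), TBX2 (3.13 ± 0.192) and SOX4 (2.80 ± 0.310) to DLX2 (0.752 ± 0.262). TBX2 and SOX4 overlapped in Vehicle. TBX3 stood above the other 4 genes in every library. The middle of the order depends on the length used: with the longest coding transcript, chosen after seeing the data, TBX2 ranked 3 with TGFB1 and 2 with Vehicle, and SOX4 ranked 5 with TGFB1 and 4 with Vehicle.

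**Figure D2:**
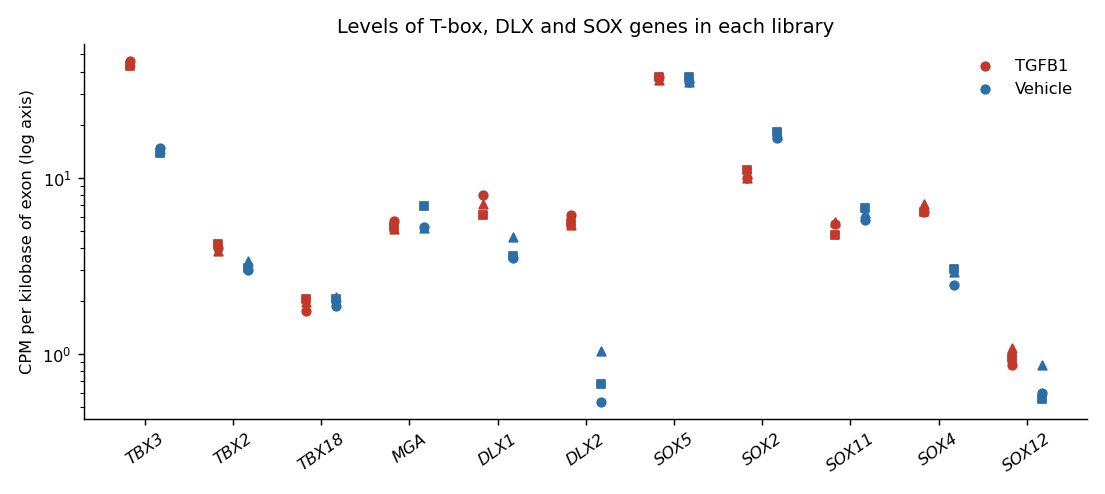
Levels in CPM per kilobase of exon (log axis) in each library, TGFB1 in red left of Vehicle in blue. Shown are the 5 genes and their relatives MGA, TBX18, SOX5, SOX2, SOX11 and SOX12. Circles, squares and triangles are replicates 1, 2 and 3. DLX2 stood at 5.70 with TGFB1 and 0.752 with Vehicle, and on this scale SOX4 lay above SOX11 with TGFB1 and below it with Vehicle.

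The T-box, DLX and SOX families hold 37 other genes on the lists, of which 16 were tested and 4 had 0 counts in all libraries. None of the 16 rose and 2 fell, past an adjusted p of 0.05 by edgeR. At an unadjusted p under 0.05, 2 were higher and 2 lower. DESeq2 and limma-voom each called 0 higher and 1 lower. Over all tested genes, 2.43% were called higher and 0.887% lower. The median log2 fold change of the 16 was 0.11, against -0.01 over all tested genes.

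Among 6 other tested T-box genes, 0 passed with edgeR, DESeq2 or limma-voom, and 0 had an unadjusted p under 0.05. The best expressed were MGA, which carries a T-box and partners MAX, and TBX18, a regulator of mesenchymal development. MGA had 94.4 ± 5.09 CPM with TGFB1 and 102.2 ± 17.5 CPM with Vehicle (SD, n = 3 each; log2 fold change -0.11, adjusted p = 0.774, edgeR). TBX18 had 16.3 ± 1.38 CPM with TGFB1 and 17.03 ± 0.969 CPM with Vehicle (-0.06, adjusted p = 0.883, edgeR). TBX4 and TBX5, which neighbour TBX2 and TBX3 in the genome, had at most 1 count in any library. DLX3 to DLX6 were all below the filter, with at most 1, 4, 8 and 9 counts per library, so DLX1 and DLX2 were the 2 members of their family with usable counts.

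Of 10 other tested SOX genes, 2 fell and 0 rose. SOX2, a stem cell and neural factor, fell to 25.1, 27.9 and 25.1 CPM in the TGFB1 libraries, against 42.1, 45.6 and 43.6 CPM in the Vehicle libraries. The groups did not overlap, and the log2 fold change was -0.75 ± 0.08 (SE, adjusted p = 9.92e-09, edgeR). SOX11, a SoxC paralog of SOX4, had 47.4, 41.2 and 48.6 CPM with TGFB1, against 49.9, 58.9 and 54.7 CPM with Vehicle. Its log2 fold change of -0.25 ± 0.07 (SE, adjusted p = 0.0479, edgeR) barely passed and was lost on leaving out TGFB1 replicate 1 (0.106) or 2 (0.307) or Vehicle replicate 2 (0.379), with DESeq2 (0.0606), limma-voom (0.062), DESeq2's size factors (0.051) or total counts (0.0996), and with the replicate block (0.0741). SOX12, the remaining SoxC gene, had 4.48 ± 0.515 CPM with TGFB1 and 3.12 ± 0.787 CPM with Vehicle (SD, n = 3 each; 0.51 ± 0.20 SE, adjusted p = 0.23, edgeR), and passed without Vehicle replicate 3 (0.0305). Per kilobase of exon, SOX4 stood at 1.18, 1.36 and 1.26 times SOX11 in the TGFB1 libraries, against 0.429, 0.451 and 0.462 times in the Vehicle libraries. Which of the pair was higher with TGFB1 depends on this scaling, since exons span 5852 bases in SOX4 and 8719 in SOX11: in CPM, without the length, SOX11 was above SOX4 in every library of both groups. Transcripts of SOX4 and SOX11 shared 6 stretches of 25 bases and none of 50. Those of SOX4 and SOX12 shared 14 stretches of 25 bases and none of 50. The most abundant SOX gene, SOX5, a SoxD factor of chondrocyte and melanocyte development, had 383.2 ± 8.42 CPM with TGFB1 and 372.0 ± 13.6 CPM with Vehicle (SD, n = 3 each; 0.04 ± 0.05 SE, adjusted p = 0.806, edgeR). SOX2, SOX11, SOX12 and SOX5 lay outside the choice of the 5 genes.

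**Figure D3:**
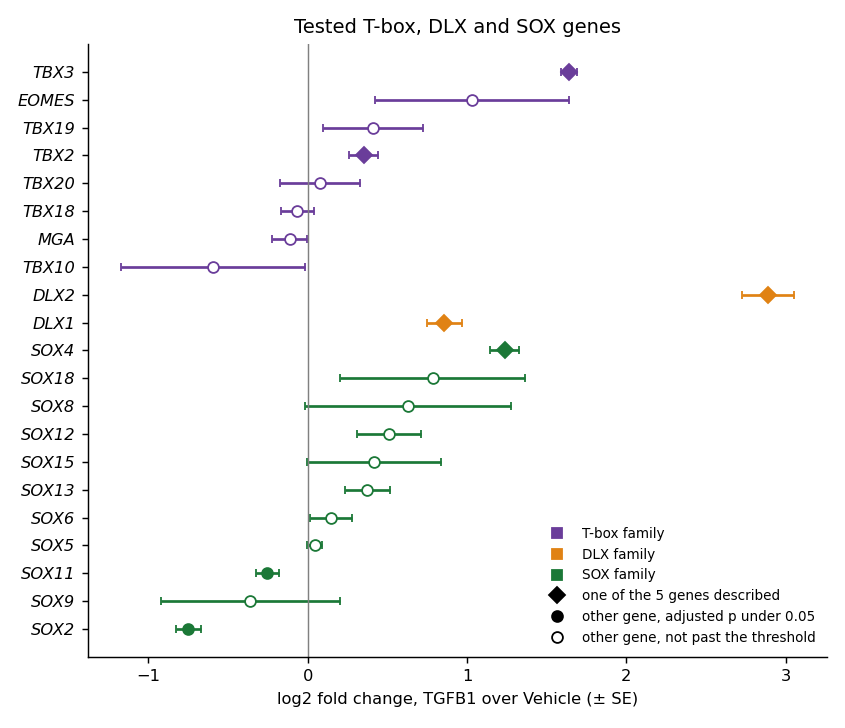
Log2 fold change of TGFB1 over Vehicle (± SE, from the edgeR fit over all genes) for the 21 tested T-box, DLX and SOX genes; diamonds are the 5 genes described, filled circles other genes past an adjusted p of 0.05, open circles those that did not pass. SOX2 and SOX11 are the filled circles, both below 0.

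No tested neighbour of the 5 genes passed the test. Of 55 other annotated genes within 500 kb of one of the 5, 14 were tested and 0 passed with edgeR, DESeq2 or limma-voom, with 1 at an unadjusted p under 0.05. That one was BRIP1, a helicase gene downstream of TBX2, at -0.17 ± 0.06 on the log2 scale (SE; edgeR adjusted p = 0.174). Within 1000 kb, 29 were tested and 0 passed with edgeR or DESeq2. Over all tested genes 3.31% passed with edgeR. At that share 14 or 29 genes would hold few calls or none, so the 0 is not a result about the neighbours. METAP1D, a mitochondrial aminopeptidase gene, ends 2309 bases upstream of DLX1 and stood at a log2 fold change of 0.11 ± 0.16 (SE; edgeR adjusted p = 0.88). HAT1 and SLC25A12 beyond it stood at 0.10 and -0.01, and ITGA6, a laminin receptor subunit gene on the other side of the pair, at -0.06. CASC15, a long noncoding RNA gene 66152 bases downstream of SOX4, stood at 0.19 ± 0.33 (SE, adjusted p = 0.896, edgeR) and CDKAL1 upstream at -0.13. Within 500 kb of TBX3 the one tested gene was a processed pseudogene, ENSG00000274879 (0.55 ± 0.33 SE, adjusted p = 0.54, edgeR). TBX2-AS1, which overlaps TBX2 on the other strand, stood at -0.16 ± 0.57 (SE, adjusted p = 0.959, edgeR). With intervals this wide for the thinly counted CASC15, TBX2-AS1 and the pseudogene, changes of moderate size were not detectable at this depth.

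**Figure D4:**
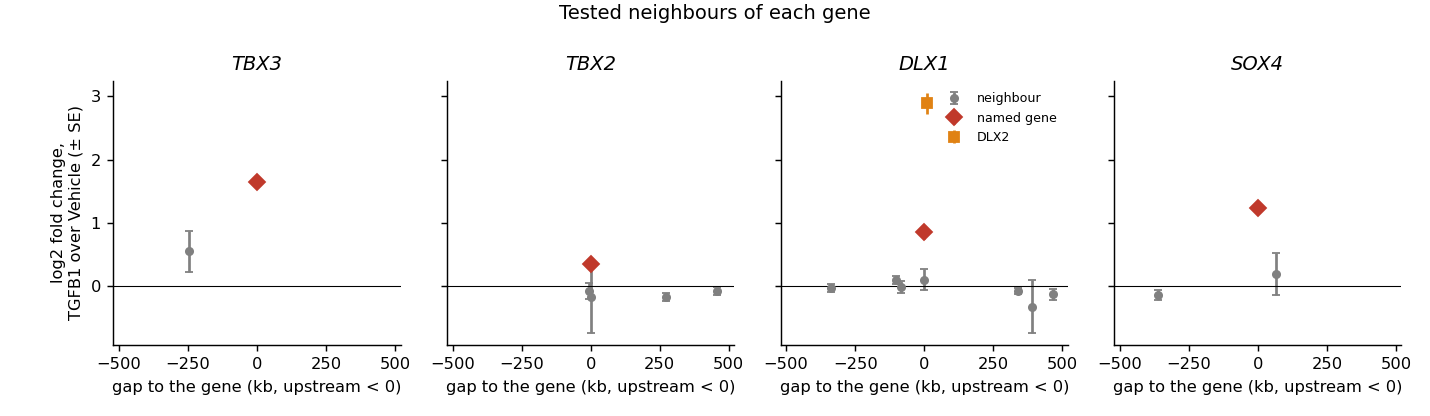
Log2 fold change of TGFB1 over Vehicle (± SE) of each tested neighbour against its gap to the gene (kb, upstream below 0) for TBX3, TBX2, DLX1 and SOX4; red diamonds are the named genes and the orange square is DLX2. The neighbours lie between -0.32 and 0.55.

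Genes tied to the 5 factors in other systems were read against the 3.31% of all tested genes that passed with edgeR in either direction; lists this short would hold few calls at that share. Of 5 tested genes known as T-box targets, 0 passed with edgeR, DESeq2 or limma-voom, and 1 had an unadjusted p under 0.05. CDKN1A, the p21 gene that TBX2 and TBX3 are known to repress, had 78.2 ± 2.02 CPM with TGFB1 and 72.5 ± 3.01 CPM with Vehicle (SD, n = 3 each; 0.11, adjusted p = 0.471, edgeR). CDKN2B had 0 counts in all libraries and CDH1 at most 10. Of 5 tested genes known as SOX4 targets, 0 passed with any of the 3 tools and 0 had an unadjusted p under 0.05. Among them, SEMA3C stood at 297.5 ± 3.70 CPM with TGFB1 and 296.8 ± 15.03 CPM with Vehicle, and EZH2, a histone methyltransferase gene, at 104.7 ± 3.51 CPM with TGFB1 and 100.1 ± 3.10 CPM with Vehicle (SD, n = 3 each). The median log2 fold change of the SOX4 list was 0.06.

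Of 7 tested genes linked to DLX1 and DLX2, 1 rose and 0 fell, where 2.43% of all tested genes were called higher and 0.887% lower; a count of 1 in a list this short is not a result about the list. NRP2, a semaphorin receptor gene that Dlx1 and Dlx2 repress in the mouse forebrain, rose to 108.0, 101.4 and 104.1 CPM in the TGFB1 libraries, against 78.3, 76.8 and 78.7 CPM in the Vehicle libraries (log2 fold change 0.42 ± 0.06 SE, adjusted p = 1.40e-06, edgeR). TGFBR2, the type II TGF-beta receptor gene, which DLX2 is known to repress in other cells, had 48.8 ± 1.46 CPM with TGFB1 and 41.9 ± 1.54 CPM with Vehicle (SD, n = 3 each; 0.22, adjusted p = 0.0801, edgeR) and passed without Vehicle replicate 3 (0.0338). Of 5 listed genes of the Groucho family, known for corepressors of developmental factors, TLE3 rose and 0 fell, against the same 2.43% and 0.887%. TLE3 had 37.9 ± 3.07 CPM with TGFB1 and 27.3 ± 2.88 CPM with Vehicle (SD, n = 3 each). Its log2 fold change was 0.47 ± 0.09 (SE, adjusted p = 0.000363, edgeR). TLE5, named after its values were seen, also passed without Vehicle replicate 3 (5.90e-05), with a log2 fold change of 0.47, against 0.25 over all libraries.

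Of 13 other tested craniofacial and limb factor genes, 0 rose and 3 fell, against 0.887% of all tested genes called lower, and at an unadjusted p under 0.05, 1 was higher and 4 lower. DESeq2 and limma-voom also called 0 higher and 3 lower. FOXD3, a neural crest specifier gene, fell to 14.7, 14.99 and 17.4 CPM in the TGFB1 libraries, against 36.8, 33.1 and 34.6 CPM in the Vehicle libraries (log2 fold change -1.15 ± 0.09 SE, adjusted p = 1.67e-11, edgeR). TWIST1, a mesenchymal helix-loop-helix factor gene, fell by 0.43 on the log2 scale (adjusted p = 0.00141, edgeR), and ALX1, a facial homeobox gene, by 0.38 (adjusted p = 0.0227, edgeR). The call on ALX1 was lost without any one library other than Vehicle replicate 3 (adjusted p = 0.0706 to 0.149). The median log2 fold change of the 13 was 0.05. FOXD3 and TWIST1 were known to fall from earlier results on these libraries when the list was chosen. The count of 3 among 13, with any of the 3 tools, is therefore not a result about the list.

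By profile over the 6 libraries (log2 CPM less the Vehicle mean, root mean square difference, among 12018 other protein-coding genes of at least 1 CPM), the nearest genes differed for each of the 4 chosen risers. The measure includes the TGFB1 over Vehicle difference that these 4 were chosen on. JAG1, for example, had a log2 fold change of 1.63, against 1.64 for TBX3. Genes of unlike fold change therefore get unlike nearest genes, and nothing is read from that. TBX3 was nearest to JAG1, a Notch ligand gene (difference 0.0615), and ENC1, an actin-binding protein gene (0.0948). DLX1 was nearest to PFKFB3, a regulator of glycolysis (0.0922), and LPIN3, a lipin gene (0.0936). SOX4 was nearest to CCL2, a chemokine gene (0.0740), and COL7A1, a collagen gene (0.105). DLX2 had no such close match: its nearest were SMAD7, the inhibitory SMAD gene (0.202), and BHLHE40, a repressor gene (0.307). The log2 fold change of DLX2 ranked 11 of 16690, so few genes have one as large. Its Vehicle libraries held only 39 to 108 reads. Nothing is read from the lack of a close match. Each of the nearest genes named here lies on another chromosome than its partner in this measure.

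All 5 genes are short. They span 3462 bases (DLX2) to 13911 bases (TBX3), against a median of 34588.5 bases over 13302 tested protein-coding genes and 24504.5 bases over the 372 of these called higher. At most 25.3% of the tested coding genes are shorter than any of the 5. Their exons form 1 block (SOX4), 2 (DLX2), 5 (DLX1 and TBX2) and 6 (TBX3), against a median of 11. The pentamer ATTTA, the core of AU-rich elements that mark short-lived mRNAs, was counted over the longest coding transcript, a measure chosen after other values were seen. It occurred 2.33, 1.80, 1.22, 1.89 and 1.71 times per kilobase in TBX3, TBX2, DLX2, DLX1 and SOX4, each above the median of 1.08 over tested coding genes. Of those genes, from 54.6% (DLX2) to 82.0% (TBX3) had a lower density. The count took in coding sequence too, and mRNA stability was not measured. DLX2, with the largest log2 fold change, had the lowest density of the 5.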

How the data were processed

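Raw counts of reads per Ensembl gene were deposited for 6 libraries. Per the submitters' processing notes, the authors used cutadapt, TopHat2 2.1 and HTSeq on GRCh38. How strand was handled and which annotation was counted is not given in the sources used here. How reads of overlapping opposite-strand exons were treated is therefore not known. The library totals given above cover all 58051 rows. CPM and the main test used totals over the 16690 tested genes. Of all rows, 604 had no entry in GENCODE 29, the source of coordinates and exon lengths.

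Low counts were removed by filterByExpr (at least 10 counts, 15 in total), scaled by TMM and tested with the quasi-likelihood F-test (edgeR 4.0.16, R 4.3.3) on group alone, with Benjamini-Hochberg adjustment over all 16690 tested genes and a threshold of 0.05. The SE is the absolute log2 fold change over the square root of F. Alternatives used limma 3.58.1 and DESeq2 1.42.0. The test script was tested on simulated counts. The members and lists were chosen with earlier results of these data known. Named genes are the 5, up to 4 called genes per list (or the 2 most abundant), called and nearest neighbours, and the 2 nearest profiles; others are named after their values were seen. A gene that the rule selects is not reported here. Keratinocyte, fibroblast and endothelial marker lists gave 0 calls with edgeR, DESeq2 and limma-voom, and 0 at an unadjusted p under 0.05; no immune marker was tested. No library was a copy of another: within groups, pairs varied 5.04 to 25.1 times as much as counting alone gives.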

Additional observations from a re-analysis of the deposited data

How the results depend on the processing

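The log2 fold changes of the 5 genes kept their sign under all 14 alternatives. These alternatives reuse the contrast on which TBX3, DLX1, DLX2 and SOX4 were chosen, so nothing is read from the sign. The log2 fold changes ran from 1.61 to 1.67 for TBX3, 0.32 to 0.41 for TBX2 and 2.72 to 3.22 for DLX2. For DLX1 they ran from 0.76 to 1.00 and for SOX4 from 1.16 to 1.30. Both ends were reached by leaving out 1 library. None moved by more than the SD between libraries, a limit that leaving out 1 library can hardly pass. The count of all genes past the threshold ran from 365 (without TGFB1 replicate 1) to 923 (without Vehicle replicate 3), genes called higher from 264 to 683 and genes called lower from 97 to 240; at a threshold of 0.01, 95 were lower. Other T-box, DLX and SOX genes called lower numbered 1 with DESeq2's size factors, total counts, the replicate block, DESeq2, limma-voom and a threshold of 0.01, in each case without SOX11, and 1 to 2 with a library left out; those called higher numbered 0 to 1. DLX-linked genes called higher numbered 1 to 2 and Groucho genes 1 to 2 with a library left out, and the Groucho genes 2 with no low-count filter. Apart from the fewer libraries or stricter threshold, the cause was not tested. The replicate block gave 601 calls against 553; same-numbered libraries did not deviate together (correlations -0.0296, 0.0418 and 0.00761), so the numbers do not pair them. DLX2 rests on as few as 39 reads in Vehicle, which limits the precision of its fold change.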
